A study of Mus musculus with 48 samples.

Results

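Livers of mice kept on the High energy 23/38/38 diet were set against livers of mice kept on the Medium energy 23/38/38 diet. The members were chosen by their labels alone: 3 High energy mice and 3 Medium energy mice of the 48 in the series. The numbers in a diet's name are its shares of protein, carbohydrate and fat, 23%, 38% and 38%, so the groups had the same composition and differed in energy level. Mice ate freely from 3 weeks of age and were harvested at 15 months, and RNA of 1 liver was hybridized to each Affymetrix array. Both sexes were used in the study, but the labels gave no sex, strain or cage for a mouse. They also gave no energy content for the energy levels, and food intake was not analysed here. Nothing in the labels says whether any of the 6 mice shared a cage. High energy replicates 2 and 3 were mice 408 and 409. High energy replicate 1 was mouse 140, and Medium energy replicates 1, 2 and 3 were mice 193, 156 and 124. A mouse number over 300 was thus found in the High energy group alone. A single mouse on the Low energy 23/38/38 diet was read for orientation and entered no comparison.

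Diluting a diet with indigestible bulk lowers the energy in each gram without changing the ratio of its nutrients, and mice can offset this by eating more. The liver meets energy supply by switching between making fat and burning it. The nuclear receptor PPAR alpha, activated by fatty acids, turns on mitochondrial and peroxisomal enzymes of fatty acid oxidation, while insulin acts through SREBP1c to turn on fatty acid synthesis. Growth hormone sets the liver's output of IGF1 and also drives the difference between male and female livers.

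The arrays differed as much within the groups as between them. The array median was 1.66, 1.79 and 1.57 in High energy mice, against 1.62, 1.80 and 1.66 in Medium energy mice, on the deposited log2 scale. The interquartile range of all probe sets was 3.21, 2.85 and 3.47 in High energy mice, against 3.37, 2.80 and 3.48 in Medium energy mice (exact permutation test, two-sided p = 0.9; 3 against 3 mice allow no p below 0.1). Replicate 2 of each group had a small interquartile range, ranks 3 and 2 of 48, and replicate 3 of each a wide one, ranks 38 and 40. High energy replicate 3 had the lowest median of the 48 arrays. Correlations between arrays had a median of 0.957 over the 6 pairs within the groups and 0.955 over the 9 pairs between them. Alb, the hepatocytes' main secreted protein, stood at 12.86, 12.87 and 12.94 in High energy mice, against 12.85, 13.06 and 12.89 in Medium energy mice. The 13 tested markers of hepatocytes averaged between 11.2 and 11.7 in all 6 livers, and the 8 of neutrophils between 1.49 and 1.74.

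Sex-dependent genes split the mice within each group. The mean of 3 Y-linked genes was 5.61, 5.54 and 1.11 in High energy mice, against 5.28, 1.23 and 1.04 in Medium energy mice. It was thus high in 2 High energy mice and in 1 Medium energy mouse. Sult2a1, a sulfotransferase known to be higher in female liver, stood at 2.31, 2.20 and 10.02 in High energy mice, against 1.82, 4.74 and 9.42 in Medium energy mice. Elovl3, a fatty acid elongase higher in male liver, stood at 11.30, 10.48 and 6.14 in High energy mice, against 10.89, 3.33 and 5.47 in Medium energy mice. Both genes followed the Y-linked level in every mouse, so the Y-linked mean was a term of the main model. Fitted differences are adjusted for it except where a fit without the term is named. Moxd1, a monooxygenase-like protein of male liver, was high in Medium energy replicate 1 alone: 1.02, 1.10 and 0.93 in High energy mice, against 6.80, 1.18 and 0.69 in Medium energy mice.

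**Figure D1:**
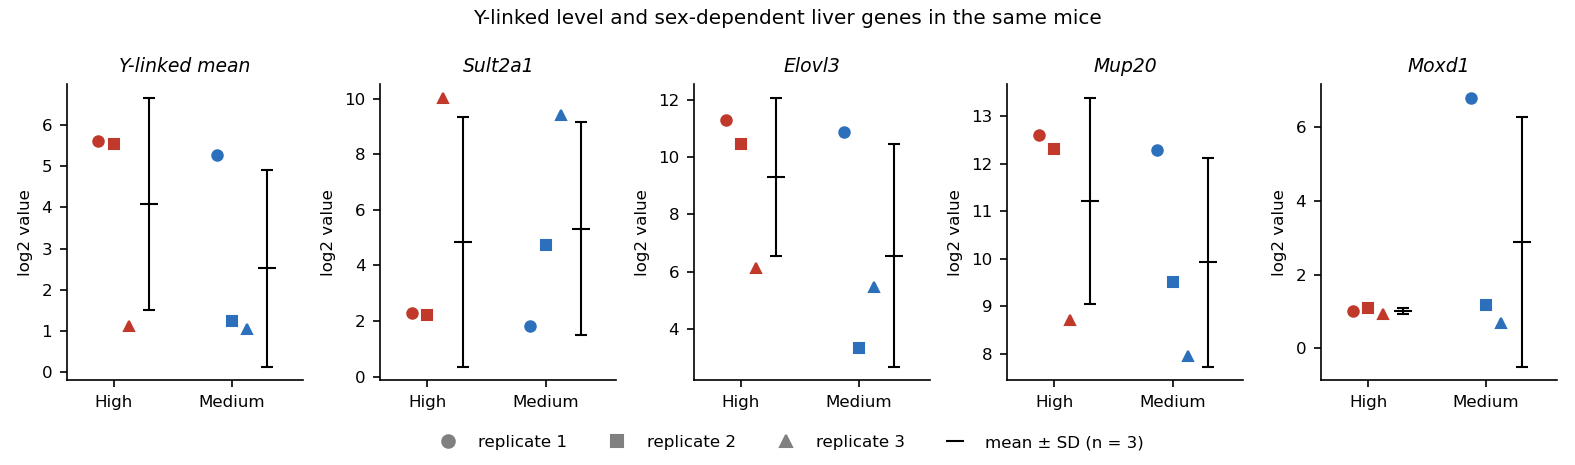
Log2 values (vertical axes) of the Y-linked mean and of 4 sex-dependent liver genes in the 3 High energy (left) and 3 Medium energy (right) mice at 23/38/38; symbols mark replicates, and bars are mean ± SD. High energy replicates 1 and 2 and Medium energy replicate 1 stand high for the Y-linked mean, Elovl3 and Mup20 and low for Sult2a1.

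No gene passed the test between High and Medium energy. Of 16922 genes tested with limma, 0 were called higher and 0 lower, which is 0% of the genes in each direction, and the lowest adjusted p was 0.768. At an unadjusted p under 0.05, 858 genes (5.07%) were found, 637 (3.76%) with a positive High minus Medium difference and 221 (1.31%) with a negative one. That total is about the share a threshold of 0.05 gives with no difference at all. The groups did not overlap for 1343 genes (7.94%): all 3 High energy mice were above all 3 Medium energy mice for 965 (5.7%), and below them for 378 (2.23%). The surplus of positive differences depended on a few arrays, since without replicate 2 of both groups there were 259 positive and 179 negative ones at an unadjusted p under 0.05, and without Medium energy replicate 2 alone 556 positive and 682 negative ones.

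The sizes of difference that the comparison could show were read from its intervals and from simulated data. The 95% interval of a gene's difference had a median half-width of 0.52 on the log2 scale, or 1.43-fold. For 13402 genes (79.2%) the whole interval lay within 1 log2 unit of 0. On simulated data with these numbers of mice, 200 of 16922 genes were changed, by 1 to 3 log2 units. Of genes changed by 1 log2 unit 68% were called, and of genes changed by 2, 90%. With fewer changed genes the adjusted threshold is harder to pass, and that case was not simulated. The simulated noise was independent between genes and had the same spread on every array. The real arrays differed in spread, so these rates are those of cleaner data. A fitted difference beyond 1 log2 unit was seen for 112 of the real genes, 53 positive and 59 negative. None of them passed, and Atp6v0d2, with a difference of -2.52 ± 0.73, had a limma adjusted p of 0.971.

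The 10 genes with a positive difference and the smallest p were of mixed function. Hsdl2, a peroxisomal and mitochondrial dehydrogenase-like protein linked to fatty acid metabolism, stood at 9.02, 8.59 and 9.16 in High energy mice, against 7.97, 8.52 and 8.34 in Medium energy mice. All 3 High energy mice were above all 3 Medium energy mice, replicate 2 of each group by the least. Its difference was 0.76 ± 0.16 (fitted, SE), or 1.70-fold (95% interval 1.35 to 2.13; limma, adjusted p = 0.768). Pex11a, which elongates and divides peroxisomes and is a PPAR alpha target, stood at 8.50, 8.46 and 9.09 in High energy mice, against 7.49, 7.91 and 8.14 in Medium energy mice. These groups did not overlap either, and the difference was 0.93 ± 0.25, or 1.91-fold (limma, adjusted p = 0.971). Uqcc1, an assembly factor of respiratory complex III, stood at 5.90, 5.74 and 5.70 in High energy mice, against 4.60, 4.81 and 5.32 in Medium energy mice, a difference of 0.87 ± 0.24. The other positive genes were Zfp654 (a zinc finger protein), Cep43 (a centrosomal protein), Ddx28 (an RNA helicase of mitochondrial ribosome assembly), Bzw2 (a regulator of translation initiation), 1700066M21Rik, Pcdhb22 (a protocadherin) and Olfr108 (an olfactory receptor), with differences between 0.76 and 1.12. Zfp654 stood at 6.04, 6.23 and 6.05 in High energy mice, against 5.19, 5.09 and 5.49 in Medium energy mice, and all but 1700066M21Rik showed no overlap. Pcdhb22 and Olfr108 were at most 2.52 in any of the 6 livers, near the filter value of 1.17.

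Among the 10 negative genes with the smallest p, only Egfr and Atp6v0d2 had a mouse above 4. Egfr, the receptor of epidermal growth factor and a gene higher in male liver, stood at 9.49, 9.24 and 8.42 in High energy mice, against 11.18, 9.29 and 9.57 in Medium energy mice. Medium energy replicate 1, with the high Moxd1, was the high one, and the groups overlapped; the difference was -1.37 ± 0.39, or 0.388-fold (limma, adjusted p = 0.971). Atp6v0d2, a subunit of the proton pump of lysosomes, stood at 3.02, 2.14 and 4.53 in High energy mice, against 4.24, 7.73 and 6.55 in Medium energy mice. Its difference of -2.52 ± 0.73 was large, but the spread within each group was over 2 log2 units. Zfp3, a zinc finger protein, stood at 1.97, 1.93 and 2.05 in High energy mice, against 2.78, 3.20 and 2.90 in Medium energy mice, a difference of -1.02 ± 0.26. The remaining 7 were Tex101 (a testis glycoprotein), Cryga (a lens crystallin), Foxp3 (the regulator of regulatory T cells), Klk1b5 (a kallikrein), Mettl24, Krtap9-3 (a hair keratin-associated protein) and Mthfs (a folate enzyme), none above 3.16 in any of the 6 livers.

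**Figure D2:**
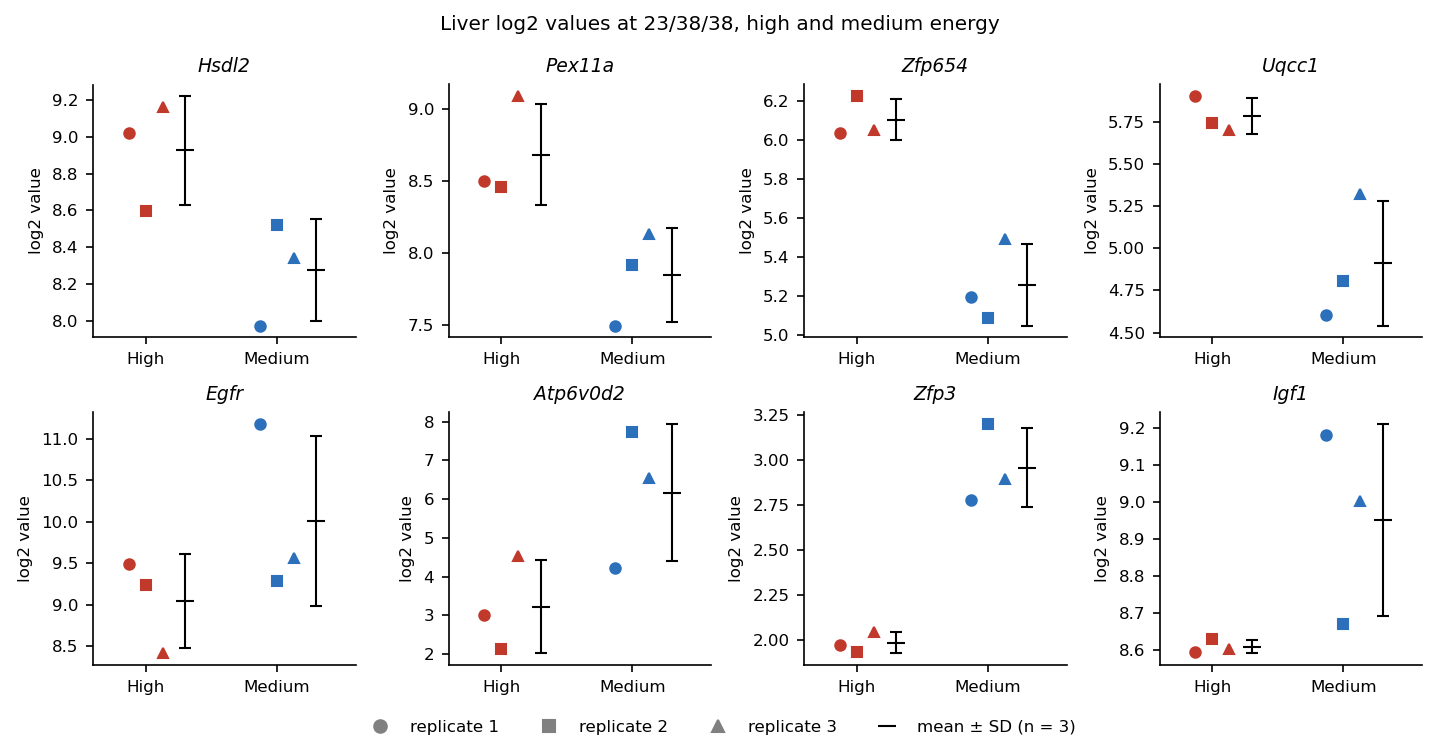
Log2 values (vertical axes) of 8 genes in the 3 High energy (left) and 3 Medium energy (right) mice at 23/38/38; symbols mark replicates, and bars are mean ± SD of the plain values. The groups do not overlap for Hsdl2, Pex11a, Zfp654, Uqcc1, Zfp3 and Igf1, and they overlap for Egfr and Atp6v0d2; limma called 0 of these genes.

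Fatty acid oxidation genes and other PPAR alpha targets had mostly positive differences. Of 30 listed, 27 were tested, 0 passed the test, 23 had a positive difference and the median was 0.31, beside 0.03 over all genes tested. The list's mean did not stand high in every High energy mouse. It was 8.80, 8.30 and 9.22 in High energy mice, against 8.34, 8.64 and 8.54 in Medium energy mice. High energy replicate 2 was thus the lowest of the 6 livers. At an unadjusted p under 0.05 there were 11 positive members and 1 negative member, where 3.76% and 1.31% of all genes were found. Fitted on the 6 mice alone, without the Y-linked term, there was 1 positive member and 1 negative member. In that fit 226 and 133 of all 16922 genes were found. With array quality weights there were 18 and 0 members, where 1874 and 1581 of all genes were found. For 6 members all 3 High energy mice were above all 3 Medium energy mice, and for 1 below, where 5.7% and 2.23% of all genes were. Since the list was drawn up with earlier results of these data known, these counts are a description.

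Mitochondrial beta-oxidation held both positive differences and differences near 0. Acaa2, the thiolase of the last step, stood at 11.06, 10.94 and 10.99 in High energy mice, against 10.75, 10.73 and 10.74 in Medium energy mice. Slc25a20, which carries acylcarnitines into mitochondria, stood at 9.03, 9.14 and 8.88 in High energy mice, against 8.52, 8.71 and 8.56 in Medium energy mice. The groups did not overlap for either gene, and the differences were 0.23 ± 0.10 and 0.42 ± 0.16 (limma, adjusted p = 0.971 for both). Acadvl, the first dehydrogenase for very long chains, stood at 9.19, 9.26 and 9.41 in High energy mice, against 8.90, 9.05 and 9.18 in Medium energy mice, a difference of 0.27 ± 0.12. Acadm, the dehydrogenase for medium chains, stood at 10.89, 11.03 and 11.16 in High energy mice, against 10.44, 10.92 and 10.97 in Medium energy mice, where the groups overlapped. Eci1 and Eci2, isomerases for unsaturated fatty acids, did not overlap and had differences of 0.42 ± 0.19 and 0.35 ± 0.16. Cpt1a, the carnitine transferase that limits entry into mitochondria, stood at 10.11, 9.28 and 10.85 in High energy mice, against 10.93, 9.94 and 10.53 in Medium energy mice, a difference of -0.30 ± 0.34 in groups that overlapped. Acadl, the dehydrogenase for long chains, differed by 0.18 ± 0.15 and Hadha, of the trifunctional protein, by 0.11 ± 0.13.

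Peroxisomal enzymes and acyl-CoA thioesterases varied more from mouse to mouse. Acot1, a cytosolic thioesterase, stood at 6.90, 6.21 and 8.01 in High energy mice, against 5.53, 6.42 and 5.97 in Medium energy mice, a difference of 1.30 ± 0.54. Acot4, a peroxisomal thioesterase, stood at 6.12, 5.24 and 6.66 in High energy mice, against 5.32, 5.42 and 6.01 in Medium energy mice, a difference of 0.79 ± 0.36. Both groups overlapped, with High energy replicate 3 highest and High energy replicate 2 low. Acaa1b, a peroxisomal thiolase, and Hsd17b4, the multifunctional enzyme of peroxisomal oxidation, had differences of 0.86 ± 0.40 and 0.31 ± 0.15. Cyp4a31, a fatty acid omega-hydroxylase, went the other way: 5.08, 5.24 and 5.53 in High energy mice, against 6.44, 7.22 and 6.15 in Medium energy mice, a difference of -1.19 ± 0.52 with no overlap. Cyp4a14, an omega-hydroxylase of the same family, had a difference of 0.95 ± 0.50, and Ppara itself one of -0.09 ± 0.35. Leaving out High energy replicate 3 left 3 positive members at an unadjusted p under 0.05, and leaving out High energy replicate 1 or Medium energy replicate 1 left 6 each. Of all 16922 genes, 891, 588 and 672 were positive at that threshold in these 3 fits. The list's median stayed between 0.26 and 0.46 over 20 settings.

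Of the 11 positive members at an unadjusted p under 0.05, 9 had an upstream window. The half-site bound by PPAR alpha and related nuclear receptors was held by 3 of those 9. The windows of these 3 genes are shown. They are RefSeq sequences of GRCm38.p6, the 250 bases before the gene start, read 5′ to 3′ on the gene's strand. Capitals mark AGGTCA or its reverse complement TGACCT. Acadm is at chr3:153944644-153944893 (minus strand), Acadvl at chr11:70015429-70015678 (minus strand) and Acot4 at chr12:84038129-84038378 (plus strand).
Acadm: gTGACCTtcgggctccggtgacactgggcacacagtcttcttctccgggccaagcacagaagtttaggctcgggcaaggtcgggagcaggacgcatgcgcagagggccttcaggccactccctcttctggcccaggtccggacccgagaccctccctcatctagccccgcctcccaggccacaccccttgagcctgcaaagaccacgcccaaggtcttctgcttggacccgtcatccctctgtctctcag
Acadvl: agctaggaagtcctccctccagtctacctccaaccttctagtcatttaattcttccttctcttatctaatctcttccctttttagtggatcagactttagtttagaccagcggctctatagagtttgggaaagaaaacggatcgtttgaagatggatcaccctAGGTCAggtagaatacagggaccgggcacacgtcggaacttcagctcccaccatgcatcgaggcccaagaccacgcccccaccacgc
Acot4: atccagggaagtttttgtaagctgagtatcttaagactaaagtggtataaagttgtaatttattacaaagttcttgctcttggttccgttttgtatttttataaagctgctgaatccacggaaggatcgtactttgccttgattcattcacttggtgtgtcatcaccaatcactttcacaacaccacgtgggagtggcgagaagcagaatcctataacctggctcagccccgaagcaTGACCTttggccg
The half-site begins 249, 87 and 13 bases before the start. Of the 27 tested members 21 had a window, and 6 of those (28.6%) held the half-site, beside 15.8% of all 27025 genes with a window. Members that held it without a positive difference at that threshold are not shown. A match of 6 letters is a description and not a binding site.

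**Figure D3:**
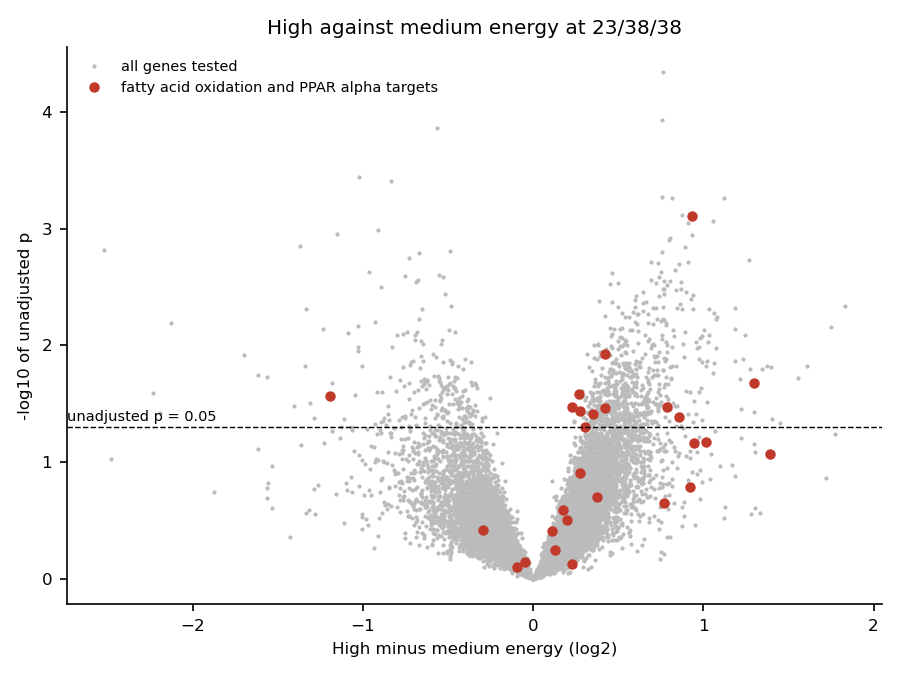
Each point is a gene tested: the fitted High minus Medium difference at 23/38/38 (log2, horizontal) against -log10 of its unadjusted p (vertical), with the fatty acid oxidation list in red and a dashed line at an unadjusted p of 0.05. Of the 27 red points 23 lie right of 0, and 11 of them lie above the line on the right.

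The same energy contrast was read at other compositions. It was averaged over the 3 with at least 2 mice at each level, 33/20/47, 33/47/20 and 14/57/29, with 6 High energy and 7 Medium energy mice, none of them among the 6 livers above. Diets 14/29/57 and 42/29/29 also had both levels, but only 1 mouse at one of them, and were left out. There the list's median was 0.11, beside -0.005 over all genes, and 22 of 27 members were positive. At an unadjusted p under 0.05 there were 2 positive members and 1 negative member, where 2.78% and 2.42% of all genes were found. Slc25a20 was one of these positive members, with 0.27 (limma, unadjusted p = 0.0167). For 20 of the 27 the difference at 23/38/38 was the more positive one. Over all genes the median of 23/38/38 minus the other compositions was 0.05. The list was already known for positive differences at 23/38/38, so this count is a description. At the other compositions Hsdl2, which is no member of the list, had 0.30 ± 0.11 (unadjusted p = 0.0101, limma adjusted p = 0.858). Pex11a had 0.10 there. The difference between the contrasts passed for 0 of 16922 genes (limma, lowest adjusted p = 0.897). At an unadjusted p under 0.05 there were 657 (3.88%), of which 411 (2.43% of all genes) were more positive at 23/38/38 and 246 (1.45%) more negative. They held 2 of the 27 members, Pex11a (unadjusted p = 0.0104) and Cyp4a14 (unadjusted p = 0.0259), and also Hsdl2 (unadjusted p = 0.0248). Of the 858 genes at an unadjusted p under 0.05 at 23/38/38, 532 (62%) had the same sign at the other compositions, beside 55.3% of all genes. In that contrast limma called 1 gene (0.00591%), lower in High energy: Sgo2a, which protects the cohesion of chromosomes at centromeres (-0.88, adjusted p = 0.040). At 23/38/38 Sgo2a stood at 1.14, 1.36 and 1.19 in High energy mice, against 1.17, 1.42 and 1.18 in Medium energy mice, a difference of -0.03 ± 0.23. All 6 values lie near the filter value of 1.17, so a lower level in High energy mice could hardly show there.

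**Figure D4:**
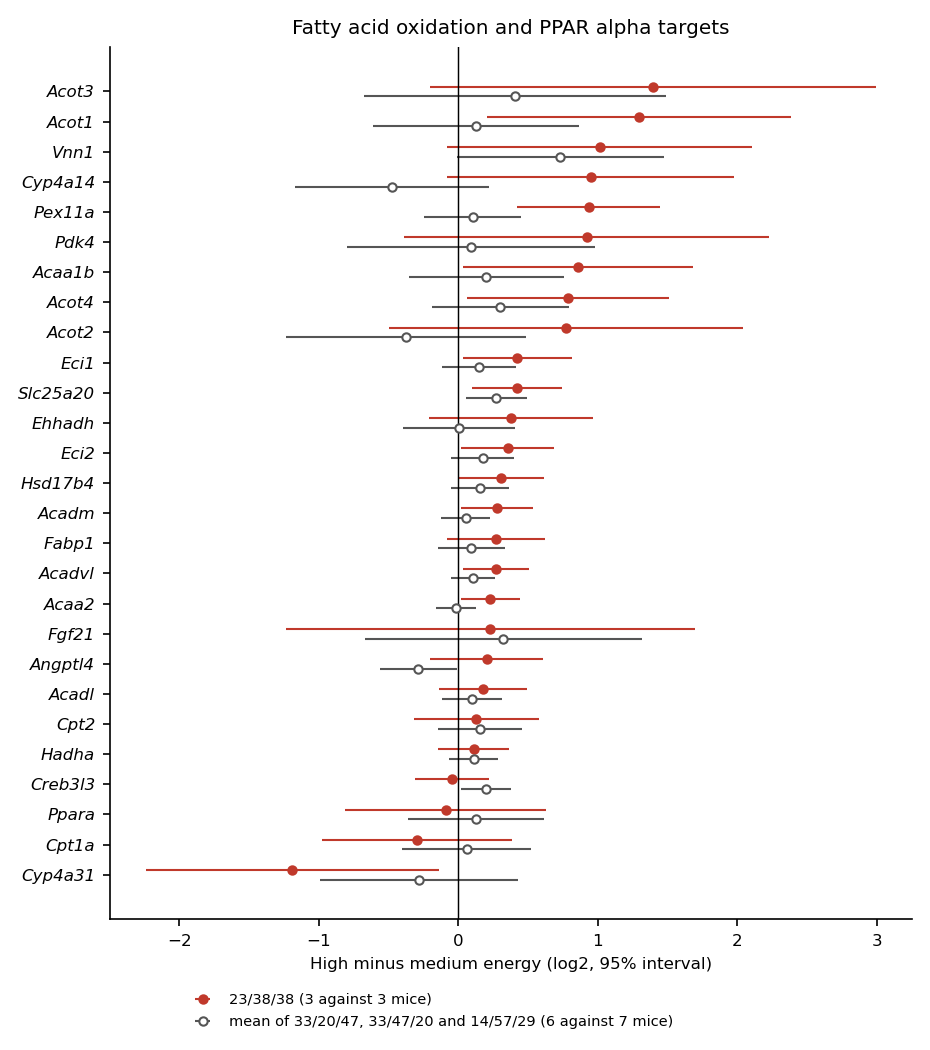
Fitted High minus Medium differences (log2, horizontal) with 95% intervals for the 27 tested genes of the fatty acid oxidation list, at 23/38/38 (red, 3 against 3 mice) and averaged over the other 3 compositions (open, 6 against 7 mice). At 23/38/38 Pex11a and Acot1 lie furthest from 0 among the positive genes whose interval leaves out 0.

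Genes that store fat leaned the same way, with a wide spread. Of 16 tested genes of lipid droplets, 14 had a positive difference (median 0.42), beside 9358 of all 16922 genes, 0 passed the test and 1 had an unadjusted p under 0.05 (3.76% of all genes). Over 20 settings the median ran between 0.22, without High energy replicate 1, and 0.62, without High energy replicate 2, and up to 8 members had an unadjusted p under 0.05, with array quality weights. With those weights 1874 of all 16922 genes were positive at that threshold. The 1 gene was Mgll, which splits monoacylglycerol: 7.51, 6.54 and 7.93 in High energy mice, against 7.26, 5.95 and 6.91 in Medium energy mice, a difference of 0.72 ± 0.32. Cidec, which fuses lipid droplets, was led by High energy replicate 1, with 7.49, 4.33 and 4.53 in High energy mice, against 5.61, 3.86 and 3.07 in Medium energy mice. Plin2, the most common droplet coat protein of liver, differed by 0.04 ± 0.21. At the other compositions the list's median was 0.01.

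Fatty acid synthesis showed no common direction. Of 17 tested genes 12 had a positive difference with a median of 0.11, and 0 passed the test. Single mice turned this: without Medium energy replicate 1 all 17 were positive (median 0.40), and without Medium energy replicate 2 only 4 were (median -0.28). The median was also negative without High energy replicate 1 or 3, and -0.05 without the Y-linked term. Me1, malic enzyme, which makes NADPH for fatty acid synthesis, stood at 10.91, 9.99 and 10.25 in High energy mice, against 9.53, 7.36 and 9.78 in Medium energy mice. The groups did not overlap, Medium energy replicate 2 was lowest, and the difference was 1.55 ± 0.63 (limma, adjusted p = 0.971). Fasn, the synthase, stood at 10.36, 7.99 and 10.86 in High energy mice, against 10.64, 8.72 and 10.14 in Medium energy mice, and differed by 0.04 ± 0.64. Replicate 2 was lowest in both groups. Scd1, a desaturase, differed by -0.16 ± 0.36, Srebf1, which encodes SREBP1c, by 0.06 ± 0.30, and Thrsp, a lipogenic factor, by 0.46 ± 0.63, all with overlap. Cholesterol synthesis and uptake had a median of 0.03 over 17 genes, 10 of them positive. Without Medium energy replicate 2 only 1 was positive (median -0.27), and without Medium energy replicate 1 the median was 0.24. Hmgcs1, its first committed enzyme, differed by 0.09 ± 0.49.

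Subunits of the proteasome, which degrades tagged proteins, were all positive. All 29 tested had a positive difference (median 0.27), 0 passed the test and 1 had an unadjusted p under 0.05, about the share of all genes (3.76%). That count ran between 0 and 20 over 20 settings, 20 with array quality weights and 11 without High energy replicate 3 or Medium energy replicate 2. Of all 16922 genes, 1874 were positive at that threshold with the weights. There were 891 without High energy replicate 3 and 556 without Medium energy replicate 2. Psmb5, a catalytic subunit, stood at 8.27, 8.50 and 7.42 in High energy mice, against 7.07, 7.67 and 6.83 in Medium energy mice, with overlap and a difference of 0.72 ± 0.35. The list's mean, centred on the 6 mice, was 0.28, 0.42 and -0.19 in High energy mice, against -0.27, 0.05 and -0.29 in Medium energy mice. High energy replicate 3 thus lay among the Medium energy mice. Over 20 settings the median ran between 0.15, without Medium energy replicate 1, and 0.45, without High energy replicate 3. Subunits of oxidative phosphorylation were positive for 30 of 37 (median 0.18, 4 at an unadjusted p under 0.05, beside 3.76% of all genes). Ndufb8, of complex I, stood at 6.98, 7.48 and 6.23 in High energy mice, against 5.98, 5.96 and 6.22 in Medium energy mice. Without Medium energy replicate 1 this list had 19 positive members of 37 and a median of 0.003. Both lists were near 0 at the other compositions, with medians of 0.08 and 0.04.

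Interferon-stimulated genes leaned the other way. Of 18 tested, 17 had a negative difference (median -0.28), beside 7564 of all 16922 genes, and 0 passed the test. At an unadjusted p under 0.05 there were 3 (1.31% of all genes), and for 4 the High energy mice lay below with no overlap (2.23% of all genes). Ifit1, which binds viral RNA, stood at 3.75, 2.92 and 4.17 in High energy mice, against 4.36, 5.05 and 5.05 in Medium energy mice. Its difference was -1.03 ± 0.36 with no overlap (limma, adjusted p = 0.971). Irf7, a transcription factor of interferon genes, stood at 6.25, 5.91 and 5.98 in High energy mice, against 6.76, 6.55 and 6.72 in Medium energy mice, a difference of -0.64 ± 0.29. Rsad2, an antiviral enzyme, had -0.54 ± 0.24, and Usp18, which dampens interferon signalling, had -0.62 ± 0.41; neither overlapped. At the other compositions the list's median was 0.02 and Ifit1 had a difference of 0.68 (unadjusted p = 0.00782). The contrasts differed for Ifit1 at an unadjusted p of 0.000371, which did not pass after adjustment. Without High energy replicate 2, 0 of the 18 had an unadjusted p under 0.05, and the median was -0.22.

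Markers of immune cells were read beside these genes. The 6 tested genes of class II antigen presentation all had a negative difference (median -0.29), as did 8 of 9 of B and plasma cells (median -0.27) and 9 of 14 of T and natural killer cells (median -0.16). Without Medium energy replicate 1 only 5 of the 9 B cell genes were negative (median -0.09, and 0.08 with array quality weights), and without replicate 2 of both groups the T cell median was 0.04. H2-Ab1, a class II chain, stood at 7.13, 6.99 and 7.23 in High energy mice, against 6.77, 8.47 and 7.94 in Medium energy mice, so Medium energy replicate 1 was below the High energy mice. The 14 lymphocyte markers of T and natural killer cells averaged 2.17, 2.02 and 2.07 in High energy mice, against 2.13, 2.39 and 2.28 in Medium energy mice. The 19 macrophage markers averaged 5.00, 5.45 and 5.77 in High energy mice, against 5.21, 5.78 and 5.90 in Medium energy mice. In whole liver fewer cells of a type and less RNA per cell cannot be told apart, and the part of immune cells in the interferon genes was not tested.

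The growth hormone and insulin axis held 1 gene without overlap among those always read. Igf1, the circulating growth factor made by liver, stood at 8.59, 8.63 and 8.60 in High energy mice, against 9.18, 8.67 and 9.003 in Medium energy mice. All 3 High energy mice lay below, Medium energy replicate 2 by 0.04 from the nearest, and the difference was -0.36 ± 0.20 (limma, adjusted p = 0.971). Igfbp1, a binding protein that insulin lowers, stood at 8.86, 8.76 and 9.999 in High energy mice, against 8.20, 11.37 and 9.45 in Medium energy mice, and differed by -0.26 ± 0.72. Lepr, the leptin receptor, stood at 3.47, 5.20 and 6.54 in High energy mice, against 4.18, 8.42 and 5.98 in Medium energy mice, a difference of -0.63 ± 0.67. Medium energy replicate 2 was highest for both. It also had 9.46 for Cdkn1a, the cell cycle inhibitor p21, which stood at 6.55, 7.29 and 9.52 in High energy mice and at 5.25 and 7.64 in the other Medium energy mice. Fgf21, the liver hormone of protein and energy shortage, stood at 6.07, 4.69 and 6.80 in High energy mice, against 5.97, 6.89 and 4.59 in Medium energy mice, and differed by 0.23 ± 0.72.

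Glucose and bile acid genes gave a mixed picture, with 0 past the test. Pck1, the rate-limiting enzyme of gluconeogenesis, stood at 11.92, 12.28 and 12.47 in High energy mice, against 11.95, 12.33 and 12.48 in Medium energy mice. Its difference was 0.005 ± 0.16, and its list of 17 had 7 positive members. Cyp7a1, the rate-limiting enzyme of bile acid synthesis, stood at 9.46, 7.45 and 8.71 in High energy mice, against 8.84, 6.56 and 7.07 in Medium energy mice, a difference of 0.74 ± 0.51. Pgam1, of glycolysis, stood at 7.26, 7.09 and 6.92 in High energy mice, against 6.79, 6.38 and 6.54 in Medium energy mice. Its difference of 0.49 ± 0.20 had no overlap, as was so for 3 of the 10 tested genes of glycolysis and fructose handling (5.7% of all genes), and at the other compositions it was -0.33 (unadjusted p = 0.0188). Acat1, a mitochondrial thiolase of ketone body synthesis, stood at 10.86, 10.92 and 10.88 in High energy mice, against 10.30, 10.73 and 10.60 in Medium energy mice, a difference of 0.39 ± 0.16.

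Acute phase proteins were negative for 16 of 21 (median -0.14, but -0.58 without High energy replicate 2 and -0.04 without High energy replicate 1). Serpina3n, a protease inhibitor of the acute phase, stood at 10.34, 10.73 and 11.14 in High energy mice, against 11.69, 11.32 and 11.52 in Medium energy mice, with no overlap and a difference of -0.77 ± 0.30. Stat3, which relays interleukin 6, overlapped and differed by -0.78 ± 0.32. The mean of the list did not follow these genes: it was 8.96, 10.31 and 9.32 in High energy mice, against 9.92, 9.82 and 9.57 in Medium energy mice, with High energy replicate 2 highest.

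Lists of sex-dependent genes turned with the model. Genes higher in female liver were positive for 20 of 22 with a median of 0.63, but the median was -0.56 without the Y-linked term. Genes higher in male liver had a median of -0.19, against 0.62 without the term. Cux2, a transcription factor of female liver, stood at 2.49, 2.39 and 5.95 in High energy mice, against 2.59, 3.67 and 4.25 in Medium energy mice, and had a fitted difference of 0.96 ± 0.44. The fatty acid oxidation list shares Acot3 and Cyp4a14 with the genes higher in female liver. Its median was the same, 0.31, with and without the term, which does not show that each member was unchanged.

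**Figure D5:**
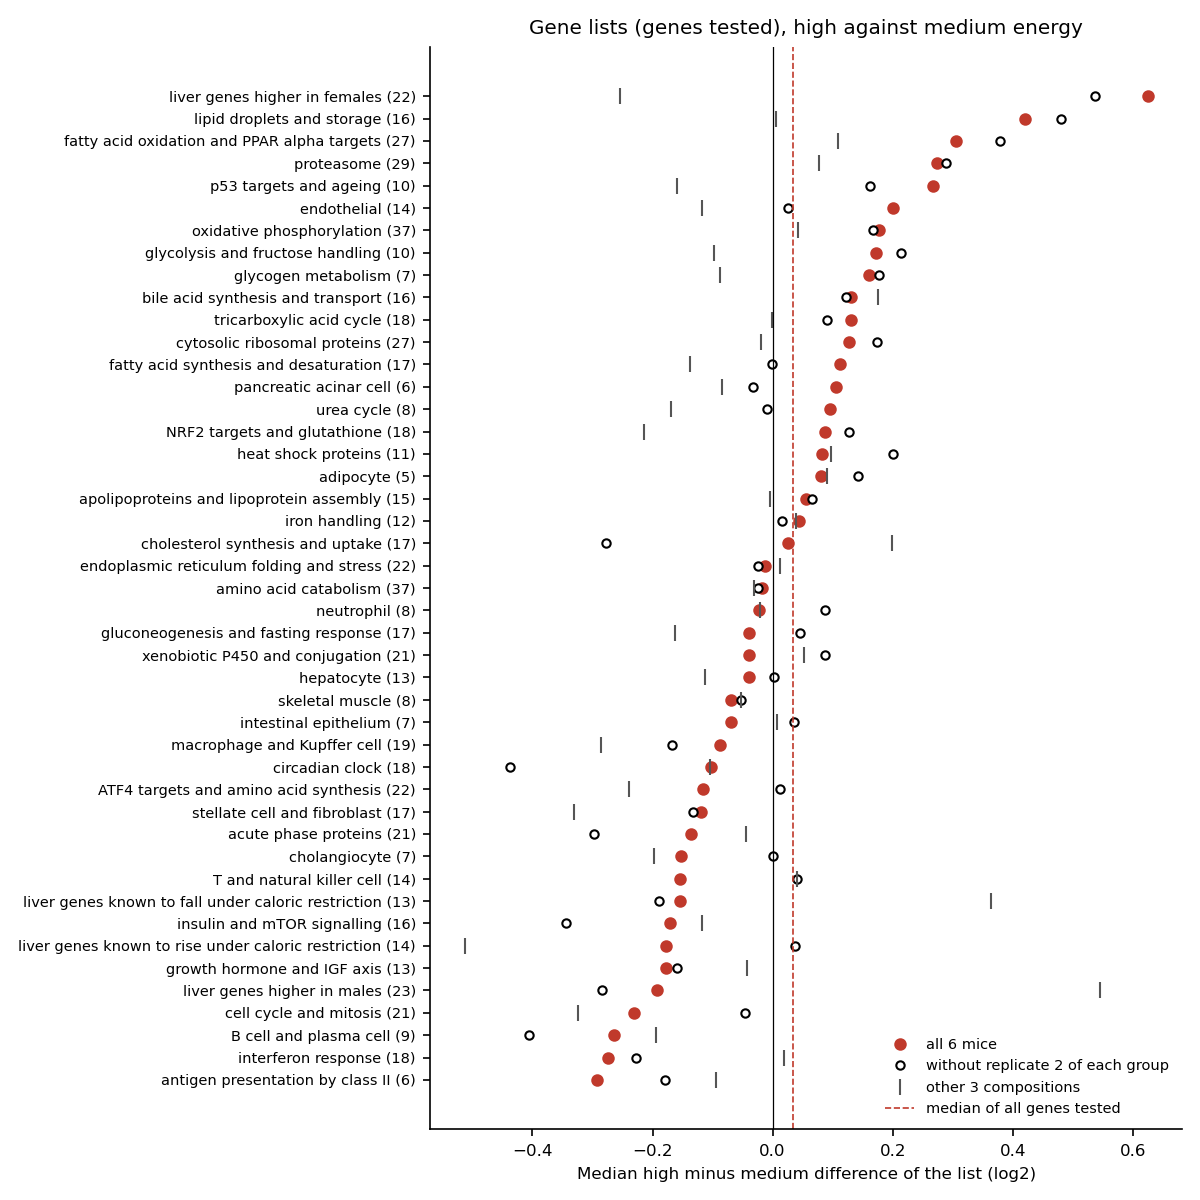
Median fitted High minus Medium difference (log2, horizontal) of each gene list with 5 or more genes tested, with the number tested in parentheses: red for all 6 mice, open circles without replicate 2 of each group, grey ticks for the other 3 compositions, and a dashed line at the median of all genes (0.03). Fatty acid oxidation, lipid droplets and the proteasome lie right of the line with all mice and without replicate 2, and interferon response lies left of it. Other lists lie likewise, among them genes higher in female liver and oxidative phosphorylation to the right. Class II antigen presentation and B cell genes are among those to the left.

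The Low energy 23/38/38 mouse, with a Y-linked mean of 1.07, was read for a few of these genes. It had 8.57 for Hsdl2, 7.91 for Pex11a, 10.75 for Acaa2, 4.79 for Ifit1 and 8.83 for Igf1. For 16 of the 27 fatty acid oxidation genes its value lay between the lowest and the highest Medium energy mouse. It is 1 animal and shows no order of the energy levels.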

How the data were processed

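Per the labels' protocols, RNA of 48 mouse livers was run on Affymetrix arrays. The table deposited by the authors holds 41345 probe sets, and its values, from -0.51 to 13.42, were read as log2 expression; the authors' normalization and software are not given in the sources used here. Gene names came from the platform annotation: 23521 probe sets had 1 symbol, 1814 had several and 16010 were unlisted. A gene was its probe set with the highest mean. Tested were the 16922 genes whose mean exceeded 1.17, the 30th percentile over probe sets; Y-linked genes, Xist and Tsix were left out.

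limma 3.58.1 in R 4.3.3 fitted 1 mean for each of 20 diet and energy combinations to all 48 mice, with the Y-linked mean (Eif2s3y, Kdm5d, Uty) as a term, 27 residual degrees of freedom and eBayes with a trend. P-values were two-sided and adjusted by Benjamini-Hochberg over all genes, with a threshold of 0.05. The mice carry no statement of separate litters or cages, so p-values measure the spread between these animals. Arrays give no counts, and their number limits the precision.

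Named genes were the 10 smallest p in each direction of a contrast, up to 4 members of each list with the smallest p and 13 fixed genes; Acaa1b, Acaa2, Acadl, Acadm, Acot4, Alb, Cyp4a31, Eci1, Eci2, Hadha, Hsd17b4, Plin2, Ppara and the unnamed probe sets were chosen after their values were seen. The comparison, the lists and the rule were chosen with earlier results of these data known. The model was tested on simulated data: of 181 calls 6.08% were false. Alternatives changed the filter, probe set rule, normalization, array weights, terms and mice. 1 item is not reported here.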

Additional observations from a re-analysis of the deposited data

How the results depend on the processing

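At 23/38/38 limma called 0 genes under each alternative but one, with lowest adjusted p between 0.0854 (all 41345 probe sets) and 1. Array quality weights called 394 genes, 217 higher and 177 lower in High energy (lowest adjusted p 0.000172), 9 of them among the 27 fatty acid oxidation genes; those weights gave High energy replicate 1 71.84% of its group's weight and Medium energy replicate 3 86.57% of its own, so this fit comes near to 1 mouse against 1. Leaving out each of the 6 mice in turn gave 0 calls each time. The split at an unadjusted p under 0.05, 637 positive and 221 negative, became 499 and 287 after quantile normalization. It became 723 and 167 with arrays centred on their medians and 936 and 440 with the interquartile range as a term. With a mouse number over 300 as a term it was 490 and 193. In the 6 mice alone, fitted without the Y-linked term, it was 226 and 133. The single call at the other compositions became 0 without a filter, with a filter at the 50th percentile, without a trend and over all probe sets, and also without both replicate 2 or any 1 of the 23/38/38 mice but Medium energy replicate 2 (lowest adjusted p 0.0516 to 0.0627), though none of these mice enters that contrast. The difference between the contrasts had 6 calls with array weights. None of the 20 leading genes changed sign in the settings run. They were picked for a small p in these same mice, so a steady sign is no independent support. At the other compositions 5 of the 10 positive and 7 of the 10 negative ones had the same sign, beside 55.3% of all genes. Leaving out replicate 2 of both groups and testing all probe sets were chosen after seeing the data. No paired analysis was possible because replicates were numbered in accession order and the labels carry only mouse numbers. Simulated differences of 1 log2 unit were called for 68% of genes, with noise of the same spread on every array, and smaller ones were not simulated. That simulation changed 200 of 16922 genes, and fewer changed genes were not tried.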

Other observations

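Probe sets without a gene name held the smallest p of the comparison. Of 17824 probe sets with no gene symbol or several, taken without a filter, limma called 0 and 934 had an unadjusted p under 0.05. Of all 41345 probe sets 2015 did, so the unnamed ones held about the share of all. Over all 41345 probe sets, probe set 17270115 stood at 5.35, 4.21 and 4.35 in High energy mice, against 1.13, 0.39 and 1.30 in Medium energy mice. The groups were over 2 log2 units apart, and the difference was 3.64 ± 0.63 (limma, adjusted p = 0.0854 over all probe sets). Probe set 17206229 stood at 0.70, 0.52 and 0.45 in High energy mice, against 2.52, 3.99 and 2.21 in Medium energy mice, a difference of -2.38 ± 0.46 (limma, adjusted p = 0.194). The Medium energy values of the first and the High energy values of the second lie about or below 1.17, the filter value used for genes, so the sizes of these differences are uncertain. Neither is listed in the annotation used here, and both were picked for those values. Probe set 17365621, also without a gene name, had a limma adjusted p of 0.0854 too. It stood at 1.04, 1.14 and 1.08 in High energy mice, against 0.38, 0.25 and 0.39 in Medium energy mice. All of these values lie below 1.17.

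Of 12 tested genes of iron handling, 2 had a positive difference at an unadjusted p under 0.05 (3.76% of all genes), and 0 did without the Y-linked term. Slc40a1, the iron exporter ferroportin, stood at 8.43, 8.23 and 8.91 in High energy mice, against 7.89, 7.77 and 8.48 in Medium energy mice, a difference of 0.67 ± 0.32. Bmp6, the signal by which iron raises hepcidin, had 0.99 ± 0.47, and its groups overlapped. Eif4ebp1, a translation repressor that mTOR inactivates, stood at 7.35, 7.82 and 6.96 in High energy mice, against 7.01, 6.16 and 6.80 in Medium energy mice. Its difference was 0.57 ± 0.22 at 23/38/38 and -0.25 at the other compositions, and the contrasts differed at an unadjusted p of 0.00509, which did not pass after adjustment.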
